A study of Mus musculus with 6 samples.

Results

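Messenger RNA levels of 42 genes of DNA replication and entry into S phase were followed in cultured mouse epidermal keratinocytes that carry the p63 alphaKO genotype and in wild type ones. The 42 genes were picked by symbol for what their proteins do, with earlier results of these data known. All 42 were found among the 30349 genes listed. All 42 also reached the minimum mean of 1 CPM (counts per 1000000 reads of a library) and so were among the 11716 genes tested. They fall into 7 roles: origin licensing (5 genes), the Mcm helicase (6), helicase activation (4), clamp loading and polymerases with the enzymes that act beside them (10), nucleotide supply (5), chromatin assembly (3) and regulators of the G1 to S transition (9).

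The p63 alphaKO group holds 3 libraries (replicates 9, 10 and 11) and the wild type group 3 (replicates 13, 14 and 15). Both are primary epidermal cells of P2 mouse pups, freed with Dispase and Accutase. Both were grown to confluence over 5 to 6 days with EGF (2.5 ng/mL), chelated serum (4%) and a low calcium level of 0.05 mM, and their RNA was read by 3' digital sequencing, which counts reads near the ends of transcripts. Trp63 encodes p63, a transcription factor that stratified epithelia need, in isoforms that differ at their C-terminal ends. The sources used here do not give what the p63 alphaKO allele removes, the strain, or whether replicates are separate animals or litters, so p-values measure the spread between these libraries, which may be technical.

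The libraries held 1699716 to 2999246 reads in p63 alphaKO and 3146374 to 3215333 in wild type. Keratinocyte markers (Krt5, Krt14, Trp63, Itga6, Itgb4 and Col17a1) summed to 19840 to 27920 CPM in p63 alphaKO and 23820 to 26410 CPM in wild type, with none at 0. Trp63 was at 49.8, 59.3 and 57.0 CPM in p63 alphaKO and 38.0, 53.2 and 48.9 CPM in wild type, which, as one level per gene near transcript ends, is no check of the genotype. Of the 42 genes, 15 share exon bases with a protein-coding gene on the other strand in GENCODE vM21. The sources used here do not say whether counting used strand, so reads of such pairs cannot be told apart.

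Replication starts at origins that are licensed in G1, when the origin recognition complex, Cdc6 and Cdt1 load the ring of Mcm2 to Mcm7 onto DNA. In S phase Cdc45 and the GINS complex turn that ring into the moving helicase, polymerases and the Pcna clamp follow it, and ribonucleotide reductase and thymidylate synthase feed them with nucleotides. Genes of this machinery are known targets of E2F transcription factors, which pocket proteins hold in check until cyclin-dependent kinases release them. In epidermis these genes are active in the dividing basal layer, the layer in which p63 is most abundant.

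No member passed the threshold of 0.05 on the adjusted p in limma's test across all genes, where 5 of 11716 genes (0.0427%) did, 0.00854% lower and 0.0341% higher. The lowest adjusted p among the 42 was 0.606, for Mcm2, and no member was called on the recovered reads by edgeR (lowest adjusted p 0.520, 0.0171% of all tested genes called) or DESeq2 (0.348, 0.128%). Log2 fold changes, p63 alphaKO minus wild type on log2(CPM + 1), lay below 0 for 35 of the 42 genes, against 49.3% of all tested genes. Their median was -0.48, against 0.01 over all tested genes, and the range ran from -1.12 (Chaf1b) to 0.18 (Rfc3). At an unadjusted p under 0.05 stood 10 members, all lower in p63 alphaKO. Over all tested genes 6.36% were past that p, 3.35% lower and 3.01% higher. In 12 of the 42 genes every p63 alphaKO library lay below every wild type library, a pattern held by 5.09% of all tested genes, and in 0 of the 42 did every p63 alphaKO library lie above (6.45% of all). Since the 42 genes were chosen with earlier results of these data known, these counts are a description.

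The difference was smaller without wild type replicate 15. This library was the highest of the 6 libraries for 24 of the 42 genes. Without it, 34 of 42 genes were still lower in p63 alphaKO, the median was -0.28 and 5 members were lower at an unadjusted p under 0.05 (11.9%, against 3.75% of all tested genes). In bulk cultures, fewer cells in S phase and less of each message per cell cannot be told apart.

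**Figure D1:**
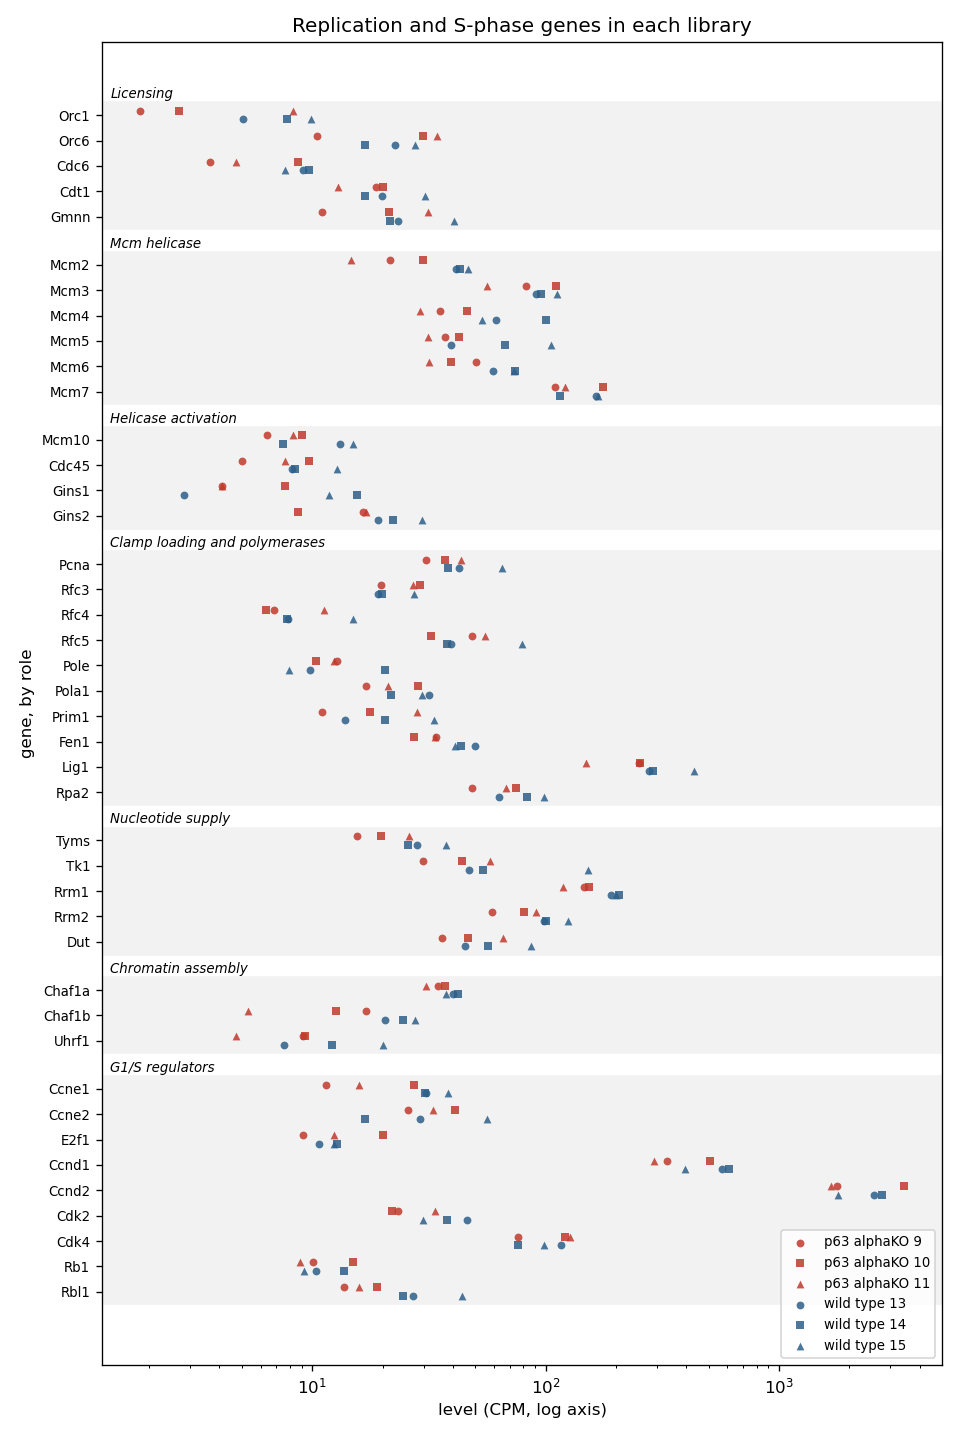
Level of each of the 42 genes in each library, in CPM on a log axis, with p63 alphaKO points (red) above wild type points (blue) in every row and genes grouped by role. Mcm2, Mcm4, Mcm6, Chaf1b, Ccne1 and Rbl1 are among the 12 genes whose red and blue points do not overlap, while those of Mcm3, Mcm7, E2f1, Cdk4 and Rb1 do.

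The Mcm helicase genes encode the subunits of the ring that unwinds DNA. All 6 of their fold changes lay below 0, with a median of -0.79 and a range from -1.01 to -0.15. Dropping wild type replicate 15 brought this median to -0.60. Dropping p63 alphaKO replicate 11 as well brought it to -0.47. Mcm2 was at 21.5, 29.7 and 14.7 CPM in p63 alphaKO replicates 9, 10 and 11 and at 41.2, 42.9 and 46.4 CPM in wild type replicates 13, 14 and 15. Mcm4 was at 35.2, 46.0 and 28.8 CPM in p63 alphaKO and 61.3, 99.8 and 53.4 CPM in wild type. Mcm6 was at 50.2, 39.3 and 31.7 CPM in p63 alphaKO and 59.4, 74.0 and 73.1 CPM in wild type. In these 3 genes the groups did not overlap, and wild type libraries varied by little for Mcm2 and most for Mcm4. The log2 fold changes were -1.01 for Mcm2 (SE 0.30, unadjusted 95% interval -1.64 to -0.37, limma adjusted p = 0.606), -0.92 for Mcm4 (SE 0.29, interval -1.53 to -0.30, 0.646) and -0.77 for Mcm6 (SE 0.26, interval -1.32 to -0.22, 0.652).

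Mcm5 was at 37.0, 42.3 and 31.2 CPM in p63 alphaKO and 39.3, 66.8 and 105.5 CPM in wild type, so that replicate 13 lay among the p63 alphaKO values (-0.82, limma adjusted p = 0.729; -0.48 without wild type replicate 15). Mcm3 and Mcm7 overlapped between the groups too. Mcm3 was at 82.7, 110.3 and 55.8 CPM in p63 alphaKO and 90.5, 95.4 and 111.5 CPM in wild type (-0.30, interval -0.86 to 0.26). Mcm7 was at 110.05, 175.95 and 121.1 CPM in p63 alphaKO and 164.01, 115.6 and 167.7 CPM in wild type (-0.15, interval -0.67 to 0.38). Without p63 alphaKO replicate 11 and wild type replicate 15 together, Mcm3 stood at 0.04 and Mcm7 at 0.015. Exons of Mcm7 overlap those of Cops6 and Ap4m1 on the other strand. The lowest library for 5 of the 6 Mcm genes was p63 alphaKO replicate 11.

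Origin licensing genes had a median of -0.46, with 4 of 5 below 0 and groups that overlapped in all 5. Orc1, the largest subunit of the origin recognition complex, was at 1.83, 2.67 and 8.23 CPM in p63 alphaKO and 5.03, 7.77 and 9.85 CPM in wild type. These levels rest on 4, 8 and 14 reads and on 16, 25 and 31 reads. Its log2 fold change was -0.86 (SE 0.50, limma adjusted p = 0.836), and the 2 low p63 alphaKO libraries lay under every wild type library while replicate 11 did not. Cdc6, the loader that joins the complex in G1, was at 3.65, 8.66 and 4.70 CPM in p63 alphaKO and 9.11, 9.64 and 7.62 CPM in wild type (-0.62, SE 0.42, limma adjusted p = 0.881). Gmnn, whose protein geminin blocks Cdt1 after S phase has begun, was at 11.0, 21.3 and 31.2 CPM in p63 alphaKO and 23.2, 21.4 and 40.3 CPM in wild type (-0.46, SE 0.37, limma adjusted p = 0.906). Gmnn stood at -0.08 without p63 alphaKO replicate 9, at -0.79 without replicate 11 and at -0.19 without wild type replicate 15, Orc1 at -0.51 and -1.37 without p63 alphaKO replicate 9 or 11, and Cdc6 at -0.39 without replicate 9. Cdt1 itself stood at -0.34 and Orc6 at 0.01, the last at -0.0051 under TMM scaling. For 4 of the 5 genes p63 alphaKO replicate 9 was the lowest library. The median was -0.19 without wild type replicate 15.

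Helicase activation genes, Mcm10, Cdc45, Gins1 and Gins2, all lay below 0 (median -0.55, and -0.35 without wild type replicate 15). Gins2, a GINS subunit, was at 16.4, 8.66 and 17.1 CPM in p63 alphaKO and 19.2, 22.1 and 29.5 CPM in wild type, with no overlap (-0.74, SE 0.35, limma adjusted p = 0.775; -0.45 without p63 alphaKO replicate 10). Gins1, another subunit, was at 4.11, 7.66 and 4.11 CPM in p63 alphaKO and 2.83, 15.5 and 11.8 CPM in wild type, and wild type replicate 13 was the lowest of all 6 libraries. Mcm10, a scaffold of the early replisome, averaged 7.87 ± 1.34 CPM in p63 alphaKO and 11.9 ± 3.91 CPM in wild type (SD, n = 3 each), and Cdc45 7.44 ± 2.33 and 9.76 ± 2.56 CPM. Both overlapped between the groups.

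**Figure D2:**
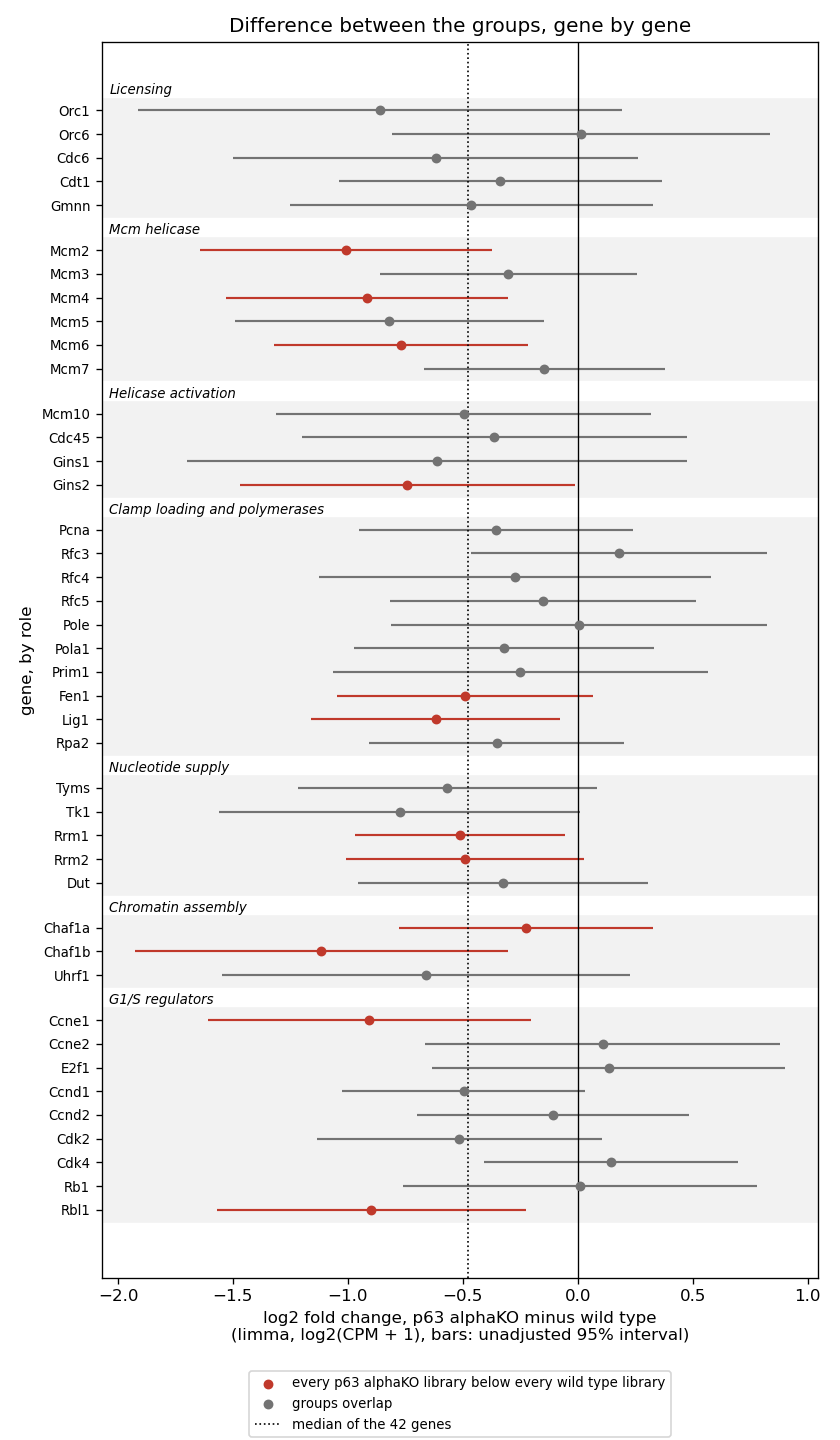
Log2 fold change of each gene, p63 alphaKO minus wild type, with its unadjusted 95% interval from limma, and genes grouped by role. Red marks genes in which every p63 alphaKO library lay below every wild type library, and the dotted line is the median of the 42 genes, -0.48.

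Genes of clamp loading, the polymerases and Okazaki fragment processing stood nearer to 0 (8 of 10 below 0, median -0.30). Leaving out wild type replicate 15 gave a median of -0.17, and leaving out p63 alphaKO replicate 9 gave -0.18. Lig1, the ligase that seals Okazaki fragments, was at 251.6, 254.6 and 148.7 CPM in p63 alphaKO and 277.8, 287.9 and 433.6 CPM in wild type (-0.62, SE 0.26, limma adjusted p = 0.758; -0.36 without p63 alphaKO replicate 11). Fen1, the nuclease that trims their flaps, was at 33.8, 27.3 and 33.5 CPM in p63 alphaKO and 49.96, 43.2 and 41.0 CPM in wild type (-0.49, SE 0.26, limma adjusted p = 0.806). Lig1 and Fen1 were the members of this role whose groups did not overlap, and exons of Fen1 overlap those of Tmem258 on the other strand.

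The sliding clamp and its loader differed less. Pcna, the clamp, was at 30.6, 37.0 and 43.5 CPM in p63 alphaKO and 42.4, 38.2 and 64.8 CPM in wild type (-0.36, interval -0.95 to 0.24). Of its 2 named pseudogene copies, which could share its reads, Pcna-ps2 was at 0.63 CPM or less in every library. Pcna-ps1 was not among the genes listed, nor was Tyms-ps, a pseudogene copy of Tyms. Loader subunits Rfc3, Rfc4 and Rfc5 stood at 0.18, -0.27 and -0.15, and Rpa2, part of the single-strand binding complex, at -0.35 (48.4, 74.7 and 67.6 CPM in p63 alphaKO, 63.2, 83.3 and 97.8 CPM in wild type). Without wild type replicate 15, Rfc4 and Rfc5 stood at 0.01 and 0.19. Of the initiating and leading-strand enzymes, Pola1 and Prim1, subunits of primase-polymerase alpha, stood at -0.32 and -0.25, and Pole, the catalytic subunit of polymerase epsilon, at 0.00 (0.00417), a sign that TMM scaling turned to -0.013. Their groups overlapped.

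All 5 genes of nucleotide supply lay below 0, with a median of -0.51 (-0.38 without wild type replicate 15). Rrm1, the large subunit of ribonucleotide reductase, was at 145.7, 154.0 and 118.7 CPM in p63 alphaKO and 189.8, 205.5 and 199.2 CPM in wild type. Its groups stood apart with a narrow spread in wild type, and its log2 fold change was -0.51 (SE 0.22, interval -0.97 to -0.05, limma adjusted p = 0.758). Rrm2, the small subunit that is made in S phase, was at 58.9, 81.0 and 91.1 CPM in p63 alphaKO and 98.3, 100.1 and 124.2 CPM in wild type, again without overlap (-0.49, SE 0.25, limma adjusted p = 0.794; -0.31 without p63 alphaKO replicate 9).

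Tk1, the thymidine kinase of dividing cells, was at 29.7, 43.7 and 57.6 CPM in p63 alphaKO and 47.1, 53.8 and 151.2 CPM in wild type (-0.77, SE 0.37, limma adjusted p = 0.778). Its value rested on wild type replicate 15, without which it was -0.25. Tyms, thymidylate synthase, averaged 20.4 ± 5.20 CPM in p63 alphaKO and 30.4 ± 6.21 CPM in wild type (SD, n = 3 each), and Dut, which removes dUTP, 49.5 ± 15.1 and 62.7 ± 21.6 CPM. The groups overlapped in Tk1, Tyms and Dut. Replicate 9 was the lowest library for 4 of the 5 genes and wild type replicate 15 the highest for 4.

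Chaf1b and Chaf1a encode subunits of the chromatin assembly factor that places histones on new DNA, and Uhrf1 binds hemimethylated DNA to recruit the maintenance methyltransferase. Chaf1b was at 16.9, 12.7 and 5.29 CPM in p63 alphaKO and 20.4, 24.6 and 27.6 CPM in wild type. Its log2 fold change was the largest in size among the 42 genes (-1.12, SE 0.39, interval -1.93 to -0.30, limma adjusted p = 0.666). It was -0.68 without p63 alphaKO replicate 11, the lowest library. Chaf1a was at 34.7, 37.0 and 30.6 CPM in p63 alphaKO and 40.2, 42.3 and 37.5 CPM in wild type (-0.23, SE 0.26, limma adjusted p = 0.936), apart but by a small margin. Uhrf1 was at 9.13, 9.33 and 4.70 CPM in p63 alphaKO and 7.54, 12.1 and 20.0 CPM in wild type, with overlap (-0.66, SE 0.42, limma adjusted p = 0.865). Uhrf1 stood at -0.38 without p63 alphaKO replicate 11 and at -0.33 without wild type replicate 15. The median of the 3 genes was -0.66. Leaving out wild type replicate 15 gave -0.33, and leaving out p63 alphaKO replicate 11 gave -0.38.

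Regulators of the G1 to S transition were split, with 5 of 9 below 0 and a median of -0.11. That median moved with each library left out: to 0.04, -0.40 and 0.01 on leaving out p63 alphaKO replicates 9, 10 and 11 in turn, and to -0.04, -0.30 and -0.30 on leaving out wild type replicates 13, 14 and 15. Ccne1, cyclin E1, which activates Cdk2 at the start of S phase, was at 11.4, 27.3 and 15.9 CPM in p63 alphaKO and 30.8, 30.5 and 38.1 CPM in wild type (-0.91, SE 0.33, interval -1.61 to -0.20, limma adjusted p = 0.728). Its paralog Ccne2 was at 25.6, 41.0 and 32.9 CPM in p63 alphaKO and 28.9, 16.8 and 55.9 CPM in wild type (0.11, interval -0.67 to 0.88; -0.053 by edgeR). Ccne1 stood apart between the groups and Ccne2 did not.

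Rbl1, the pocket protein p107, was at 13.7, 19.0 and 15.9 CPM in p63 alphaKO and 27.0, 24.6 and 43.8 CPM in wild type, without overlap (-0.90, SE 0.32, interval -1.57 to -0.23, limma adjusted p = 0.716). Rb1, the retinoblastoma protein, was at 10.1, 15.0 and 8.82 CPM in p63 alphaKO and 10.4, 13.7 and 9.21 CPM in wild type (0.01, interval -0.76 to 0.78; -0.0092 under TMM scaling). E2f1, an activating E2F factor, was at 9.13, 19.99 and 12.3 CPM in p63 alphaKO and 10.7, 12.8 and 12.4 CPM in wild type (0.13, interval -0.64 to 0.90). Rb1 and E2f1 overlapped between the groups.

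Cdk2, the kinase partner of cyclin E, was at 23.3, 21.99 and 33.5 CPM in p63 alphaKO and 46.2, 37.6 and 29.9 CPM in wild type (-0.52, interval -1.14 to 0.11). Exons of Cdk2 overlap those of the melanocyte gene Pmel on the other strand, and Pmel was at 89.5, 156.3 and 27.0 CPM in p63 alphaKO and 190.7, 148.0 and 36.5 CPM in wild type; whether Pmel reads entered the Cdk2 values was not tested. Cdk4, the partner of D cyclins, was at 76.3, 121.0 and 127.6 CPM in p63 alphaKO and 116.6, 76.2 and 97.8 CPM in wild type (0.14, interval -0.41 to 0.70).

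The D cyclins, which carry growth signals to Cdk4, were in contrast to most members not highest in wild type replicate 15. Ccnd1 was at 330.2, 507.9 and 290.4 CPM in p63 alphaKO and 569.0, 611.5 and 393.3 CPM in wild type (-0.50, SE 0.25, interval -1.02 to 0.03, limma adjusted p = 0.794). Ccnd2 was at 1771, 3422 and 1669 CPM in p63 alphaKO and 2556, 2764 and 1789 CPM in wild type (-0.11, interval -0.70 to 0.48). Both were lowest in p63 alphaKO replicate 11, and wild type replicate 15 was the lowest of its group.

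Ratios between partner genes within a library were compared for 9 pairs, listed after gene values had been seen. An exact two-sided permutation test over the 6 libraries can give no p below 0.10 here. The ratio of Ccnd1 to Ccnd2 was 0.186, 0.148 and 0.174 in p63 alphaKO and 0.223, 0.221 and 0.220 in wild type, close to constant in wild type. The ratio of Ccne1 to Ccne2 was 0.447, 0.667 and 0.482 in p63 alphaKO and 1.07, 1.81 and 0.682 in wild type, and that of Chaf1b to Chaf1a 0.487, 0.342 and 0.173 in p63 alphaKO and 0.508, 0.581 and 0.737 in wild type. In these 3 pairs the groups did not overlap (exact permutation p = 0.10, Benjamini-Hochberg adjusted 0.30 over the 9 pairs).

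The other 6 pairs overlapped. Differences in mean log2 ratio, p63 alphaKO minus wild type, were -0.79 for Mcm4 to Mcm7, -0.64 for Mcm6 to Mcm7, -0.53 for Mcm5 to Mcm3, -0.68 for Cdk2 to Cdk4 and -0.95 for Rbl1 to Rb1. For Rrm2 to Rrm1 it was 0.02. The exact permutation p of these 6 pairs was 0.20 to 0.90. Since no p under 0.10 was possible, the ratios are a description.

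**Figure D3:**
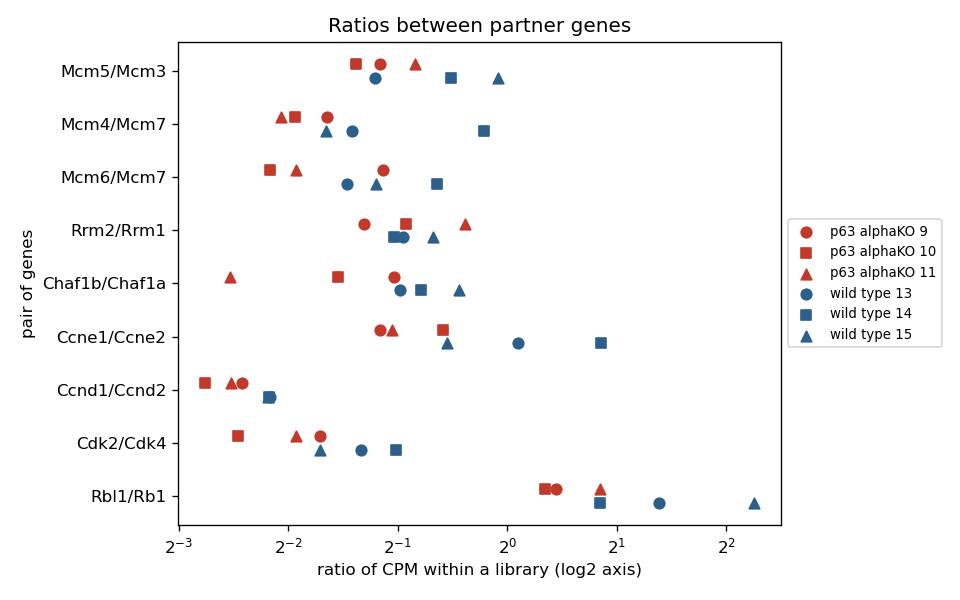
Ratio of CPM between the genes of each of 9 pairs within each library, on a log2 axis, with p63 alphaKO points (red) above wild type points (blue). Red and blue do not overlap for Chaf1b/Chaf1a, Ccne1/Ccne2 and Ccnd1/Ccnd2, and the wild type ratios of Ccnd1/Ccnd2 lie at 0.220 to 0.223.

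Promoters were read to see what the 42 genes share beyond their roles. Windows of 250 bases before to 50 bases after the start site, from RefSeq on GRCm38.p6, were matched by symbol for 33 of the 42 genes (38 windows). They were searched on both strands for the E2F words TTTCCCGC, TTTCGCGC, TTTGCCGC and TTTGGCGC, which can overlap each other on opposite strands. An E2F word was in 13 of the 38 windows (34.2%), against 2.26% of all 32851 windows. CCAAT, the box bound by NF-Y, was in 55.3% of the windows and 37.4% of all. TTTGAA, the CHR element of late cell cycle genes, was in 7.89% and 17.9%. The 13 genes with an E2F word had a median log2 fold change of -0.62, with 12 of 13 below 0 and groups apart in 3. The 20 matched genes without one had a median of -0.36, with 17 of 20 below 0 and groups apart in 7. Over all tested genes 5.09% had every p63 alphaKO library below every wild type library. Genes with a word thus had the lower median but the smaller share with groups apart, and the split was not tested. A match is a run of letters and not a site of binding.

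The windows of the 5 genes with an E2F word and the smallest limma p are shown 5' to 3' on the strand of the gene, with the E2F words in capitals, since Mcm6, Rbl1, Mcm5 and Lig1 are among the 10 members at an unadjusted p under 0.05. In Mcm6 the words begin at -110, -106 and -47 relative to the start site, the first 2 overlapping on opposite strands. In Mcm5 they begin at -153 and -149, likewise overlapping. In Rbl1 the word begins at -18, in Cdk2 at -140 and in Lig1 at 27, past the start. Lig1 has 3 windows in the table, of which the one with the word is shown.
Mcm6 (chr1:128359656-128359955, minus strand): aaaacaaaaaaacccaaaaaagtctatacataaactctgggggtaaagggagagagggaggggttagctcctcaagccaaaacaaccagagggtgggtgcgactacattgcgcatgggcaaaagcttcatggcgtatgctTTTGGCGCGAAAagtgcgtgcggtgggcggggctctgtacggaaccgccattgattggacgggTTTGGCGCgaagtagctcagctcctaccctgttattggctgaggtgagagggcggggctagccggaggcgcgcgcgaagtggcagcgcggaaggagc
Rbl1 (chr2:157204485-157204784, minus strand): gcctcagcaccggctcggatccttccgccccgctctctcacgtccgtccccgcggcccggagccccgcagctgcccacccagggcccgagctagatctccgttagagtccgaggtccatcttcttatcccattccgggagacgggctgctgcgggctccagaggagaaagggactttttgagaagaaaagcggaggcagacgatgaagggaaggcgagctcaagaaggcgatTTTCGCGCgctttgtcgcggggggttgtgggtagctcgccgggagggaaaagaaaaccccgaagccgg
Mcm5 (chr8:75109259-75109558, plus strand): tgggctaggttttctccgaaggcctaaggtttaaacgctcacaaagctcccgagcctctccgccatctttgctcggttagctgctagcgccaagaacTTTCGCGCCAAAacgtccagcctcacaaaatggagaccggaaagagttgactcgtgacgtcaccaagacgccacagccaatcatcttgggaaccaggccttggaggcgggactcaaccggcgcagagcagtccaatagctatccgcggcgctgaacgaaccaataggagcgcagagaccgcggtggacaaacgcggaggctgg
Lig1 (chr7:13278576-13278875, plus strand): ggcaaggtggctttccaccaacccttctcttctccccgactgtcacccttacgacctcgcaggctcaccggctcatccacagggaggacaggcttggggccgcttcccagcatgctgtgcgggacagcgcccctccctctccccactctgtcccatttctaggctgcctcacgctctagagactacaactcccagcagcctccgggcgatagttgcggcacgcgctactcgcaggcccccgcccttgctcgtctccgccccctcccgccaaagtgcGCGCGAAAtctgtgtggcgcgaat
Cdk2 (chr10:128705002-128705301, minus strand): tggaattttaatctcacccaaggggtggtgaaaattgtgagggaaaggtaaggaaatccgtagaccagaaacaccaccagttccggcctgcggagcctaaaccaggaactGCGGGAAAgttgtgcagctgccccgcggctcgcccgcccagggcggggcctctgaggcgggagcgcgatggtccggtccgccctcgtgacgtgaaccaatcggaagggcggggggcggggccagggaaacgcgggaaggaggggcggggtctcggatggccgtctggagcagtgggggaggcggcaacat

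Libraries within a group differed by role. Averaged over the 42 genes, the deviation of log2(CPM + 1) from each gene's mean was -0.41, -0.04 and -0.20 in p63 alphaKO replicates 9, 10 and 11 and 0.05, 0.15 and 0.46 in wild type replicates 13, 14 and 15. Replicate 10 of p63 alphaKO and replicate 13 of wild type were thus close. Replicate 9 was the lowest library for licensing (-0.79) and nucleotide supply (-0.57), where replicate 11 stood at 0.12 and -0.01. Replicate 11 was the lowest for the Mcm helicase (-0.66) and chromatin assembly (-0.86), where replicate 9 stood at -0.31 and -0.02. For the Mcm helicase, helicase activation, nucleotide supply and chromatin assembly the mean deviation of every p63 alphaKO library lay below that of every wild type library. The nearest were p63 alphaKO replicate 11 (-0.01) and wild type replicate 13 (0.0038) in nucleotide supply. For licensing, clamp loading and polymerases, and the G1/S regulators the groups overlapped.

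**Figure D4:**
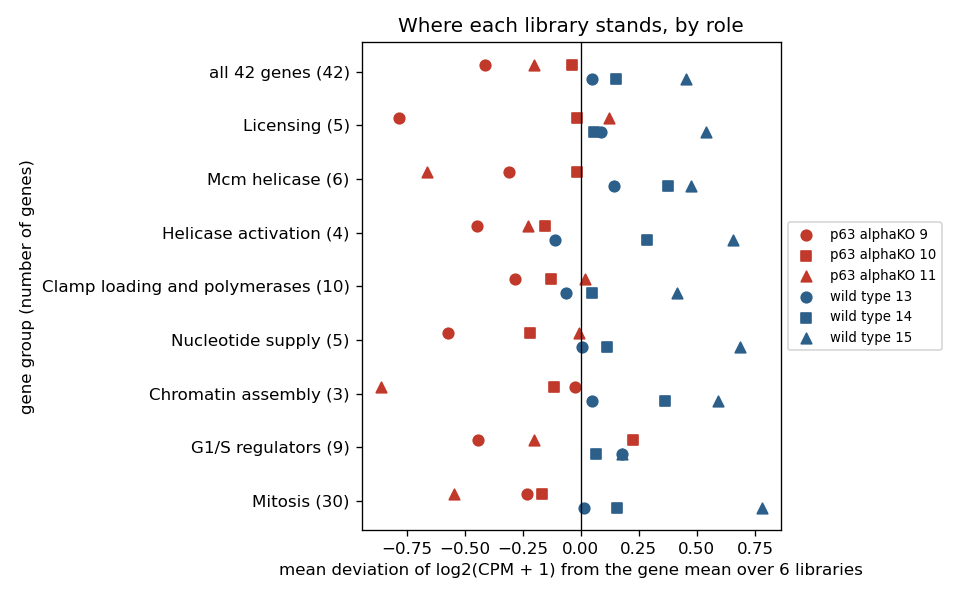
Mean deviation of log2(CPM + 1) from the gene mean over 6 libraries, for the 42 genes, each role and 30 mitosis genes, with p63 alphaKO points (red) above wild type points (blue) in each row. Wild type replicate 15 is the rightmost point in each row but that of the G1/S regulators, and p63 alphaKO replicate 9 or 11 the leftmost point in every row.

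Other genes of the same machinery, 94 in 6 lists of which 93 were tested, lay on the same side by less. Of the 93, 71 were lower in p63 alphaKO (median -0.28), none passed the threshold in either direction, 7 were lower at an unadjusted p under 0.05 (7.53%, against 3.35% of all tested genes) and 10 had every p63 alphaKO library below every wild type library (10.8%, against 5.09%). Their largest differences by p were in Ccna2, the cyclin of S phase and G2, at 16.0, 16.3 and 15.3 CPM in p63 alphaKO and 26.1, 42.3 and 54.0 CPM in wild type (-1.25, SE 0.32, limma adjusted p = 0.377), and in Asf1b, the histone chaperone that hands histones to the chromatin assembly factor. Asf1b was at 6.85, 14.3 and 10.6 CPM in p63 alphaKO and 24.8, 20.8 and 34.6 CPM in wild type (-1.28, SE 0.35, limma adjusted p = 0.475). Both stood apart between the groups.

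By list, 16 of 20 other G1/S regulators were lower (median -0.43; Cdc25a, the phosphatase that activates Cdk2, at -0.72), 10 of 10 other chromatin assembly genes (-0.32; Cdca7 at -0.87) and 16 of 22 other polymerase and clamp loading genes (-0.20; Pold3, a polymerase delta subunit, at -0.89 and Rpa1 at -0.68). Likewise lower were 10 of 12 fork protection and checkpoint genes (median -0.26, with Clspn, a mediator of the replication checkpoint, at -0.73). So were 12 of 16 other licensing and firing genes (median -0.26, with the helicase Recql4 at -1.18 and Orc5 at 0.93). Recql4 rests on few reads, at 0.91, 1.00 and 0.59 CPM in p63 alphaKO, where 1 read was worth 0.457, 0.333 and 0.588 CPM. Over the alternatives tried Recql4 ran from -1.90 to -0.48 and Orc5 from 0.31 to 1.44. Other nucleotide supply genes were mixed, with 7 of 13 lower (-0.09; Dctd at 0.78, Cad at -0.50). Mitosis genes, which act after S phase, had 29 of 30 lower and a median of -0.68. That median was -0.48 without wild type replicate 15, the highest library for 28 of the 30. Of the 30, 14 were lower at an unadjusted p under 0.05 (46.7%, against 23.8% of the 42 genes and 3.35% of all tested genes). In 13 every p63 alphaKO library lay below every wild type library (43.3%, against 28.6% and 5.09%). Without wild type replicate 15, 13.3% of the mitosis genes and 11.9% of the 42 were lower at that p, against 3.75% of all.

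Inhibitors of cyclin-dependent kinases act upstream of these genes. Cdkn1c, the inhibitor p57, was at 39.3, 29.7 and 35.3 CPM in p63 alphaKO and 6.28, 1.87 and 4.76 CPM in wild type, and it rose (2.85, SE 0.39, limma adjusted p = 0.00686), with groups that did not overlap. The call was lost with no trend (limma adjusted p = 0.169), with no filter on low values (0.0522) and without p63 alphaKO replicate 9 (0.0661). Log2 fold changes there were 2.76 to 2.85. The 6 other inhibitor genes looked at did not pass the threshold. Cdkn1a, the inhibitor p21, was at 2625, 2732 and 2235 CPM in p63 alphaKO and 2369, 2107 and 1734 CPM in wild type (0.30, SE 0.22, limma adjusted p = 0.888).

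By sum, skeletal muscle markers were highest in wild type replicate 15, while melanocyte and fibroblast markers were lowest there among the wild type libraries. Single markers went the other way: the fibroblast markers Dcn (4.45 CPM) and Pdgfra (3.49 CPM) were highest in replicate 15. The melanocyte marker Ednrb, at 5.08 CPM in replicate 15, was lowest among wild type libraries in replicate 14 (3.73 CPM). The 10 skeletal muscle markers summed to 17.4 to 79.9 CPM in p63 alphaKO and 83.6 to 720.1 CPM in wild type, and 8 of the 8 tested were lower in p63 alphaKO; Myh3 was at 0 in all 6 libraries and Des in the p63 alphaKO ones. The part of muscle RNA in the replication values was not tested, and without replicate 15 the median of the 42 genes was -0.28. The 11 melanocyte markers summed to 236.9 to 1045 CPM in p63 alphaKO and 314.8 to 843.0 CPM in wild type (8 of 11 lower), and the 8 fibroblast markers to 7.06 to 40.3 CPM and 16.5 to 40.5 CPM (5 of 5 tested lower, Lum at 0 in all). Immune markers summed to at most 0.67 CPM, Merkel cell markers to at most 2.80 CPM and endothelial markers to at most 3.53 CPM in any library, with Cd207, Krt20 and Kdr at 0 in all 6. Mitochondrially encoded RNA, a sign of RNA and cell quality, summed to 12120 to 17890 CPM in p63 alphaKO and 12460 to 16290 CPM in wild type.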

How the data were processed

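Each of the 6 columns is 1 library, per the labels. The deposited values are CPM made by the authors, as read from the table itself: columns sum to 999047.39 to 999508.21. Low values step in whole reads, with 100% whole to a tolerance of 0.1 read. The submitters' processing notes name STAR, HTSeq and mm10, without roles. The sources used here give no versions, annotation or molecular identifiers, so reads may not be independent molecules. Dividing by the value of 1 read gave whole reads for edgeR 4.0.16 (2 genes called) and DESeq2 1.42.0 (15 called), used as alternatives.

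Genes averaging 1 CPM or more were tested with limma 3.58.1 (R 4.3.3, mean-variance trend) on log2(CPM + 1), two-sided, with Benjamini-Hochberg adjustment over all tested genes. Log2 fold changes (p63 alphaKO minus wild type) are understated for low genes, and SE is limma's moderated error. All 42 genes may be named; up to 3 per role, of smallest p, have full statistics, and up to 2 per other list are named. Lists are described by counts and medians, with no set test. Promoter words and the 5 promoters shown follow a rule on the smallest p. Positions and overlaps are from GENCODE vM21 on GRCm38, where all 42 symbols were found once. The genes and lists were chosen with earlier results of these data known. Alternatives were other pseudocounts, filters, scalings, moderation and tools, and leaving out libraries.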

Additional observations from a re-analysis of the deposited data

How the results depend on the processing

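No member passed the threshold under any of the 17 alternatives tried (lowest limma adjusted p 0.168, for Mcm4 without p63 alphaKO replicate 11 and wild type replicate 15 together). Between 33 and 38 of the 42 genes lay below 0, and their median ran from -0.52 to -0.27. Leaving out 1 library each gave medians of -0.52 to -0.28 and 2 to 13 genes called among all tested. The number of genes called among all tested, 5 as reported, was 2 with a pseudocount of 0.5, 3 with 5, 1 with no filter, 2 with a minimum mean of 5 CPM, 0 with no trend (limma, where 6 members kept an unadjusted p under 0.05), 2 by edgeR, 15 by DESeq2 and 48 without both libraries. The cause was not tested.

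Some genes turned sign, among them Cdt1, Mcm3, Rfc4 and Prim1, at -0.34, -0.30, -0.27 and -0.25 as reported. With a pseudocount of 5, Pole was at -0.014. Under TMM scaling Pole was at -0.013, Orc6 at -0.0051 and Rb1 at -0.0092. By edgeR Pole was at -0.13 and Ccne2 at -0.053, and by DESeq2 at -0.12 and -0.051. Without both libraries Orc6 was at -0.13, Pole at -0.28, Cdt1 at 0.081, Mcm3 at 0.039, Mcm7 at 0.015 and Rfc5 at 0.035. Leaving out 1 library each gave ranges of -0.25 to 0.38 for Pole, -0.29 to 0.52 for Orc6, -0.30 to 0.54 for Ccne2, -0.44 to 0.080 for Ccnd2, -0.016 to 0.38 for Cdk4, -0.15 to 0.37 for E2f1, -0.57 to 0.072 for Prim1, -0.20 to 0.16 for Rb1, -0.50 to 0.011 for Rfc4 and -0.34 to 0.19 for Rfc5. The shallowest library, p63 alphaKO replicate 11, held 1699716 reads, and the fewest reads behind a level of the 42 genes were 4. No paired analysis was possible because the groups share no replicate numbers.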
